A study of Mus musculus with 12 samples.

Results

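Peritoneal macrophages of mice fed a high-fat diet were compared with those of mice fed chow, in cultures that received no red blood cells (RBC). The comparison uses 4 of the 12 arrays of the study, 2 per diet, and describes 19166 autosomal genes out of 19938 genes tested. Each gene is represented by a probe set listed for 1 gene symbol, and by the brightest such probe set where there were several. Macrophage donors were C57BL/6 mice, 6 weeks old at the start, kept for 12 weeks on the control chow (CD) or on the high-fat diet (HFD). All of them received thioglycollate, an irritant that draws inflammatory macrophages into the peritoneal cavity, so neither group represents the resting peritoneum. The other 8 arrays hold macrophages of the same donor diets given RBC of chow-fed or of high-fat-fed mice, with 2 arrays per combination, and none of them enters the comparison without RBC other than through the pooled estimate of the spread. The labels number the arrays of a group as animal replicates 1 and 2 and say nothing of separate cultures, so p-values measure the spread between these arrays, which may be technical in part.

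Values are log2 signals per array, and differences are high-fat minus chow, so that a difference of 1 is a 2-fold change. Errors after ± are standard errors of estimates from limma, a linear model for arrays fitted to all genes. A gene is said to have risen or fallen when its Benjamini-Hochberg adjusted p over all genes tested was below 0.05. Levels of different genes are not compared, because probe sets differ in brightness. The lower quartile of all genes was between 3.87 and 4.01 on the 4 arrays without RBC. Signal over background was not analysed, so for a gene that read near or below that quartile in 1 diet the difference may understate the change.

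The diet groups also differed in transcripts that mark the sex of the donors. Xist, the noncoding RNA of X inactivation in female cells, read 9.09 and 9.07 on the chow arrays and 4.14 and 3.22 on the high-fat arrays. Eif2s3y, a Y-linked translation factor gene, read 2.76 and 2.83 on the chow arrays and 7.42 and 7.68 on the high-fat arrays. The Y-linked histone demethylase genes split the same way, Uty with 3.05 and 2.91 on the chow arrays and 5.04 and 5.64 on the high-fat arrays and Kdm5d with 3.91 and 3.62 on the chow arrays and 5.70 and 5.85 on the high-fat arrays. The groups did not overlap for any of these 4 genes, and the exposed arrays repeated the pattern, with Xist between 9.35 and 9.44 on the 4 chow arrays and between 3.52 and 3.69 on the 4 high-fat arrays. The labels used here give no sex, so the diet and the sex of the donors cannot be told apart in any value that follows. Nnt, a mitochondrial proton-pumping transhydrogenase whose gene is partly deleted in the C57BL/6J substrain, read 6.07 and 5.94 on the chow arrays and 6.59 and 6.81 on the high-fat arrays, a difference of 0.70 ± 0.11 (adjusted p = 0.00074). The labels give no substrain, and the part of these genes in the results was not tested. Xist, the Y-linked genes and Nnt were chosen after their values were seen.

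**Figure D1:**
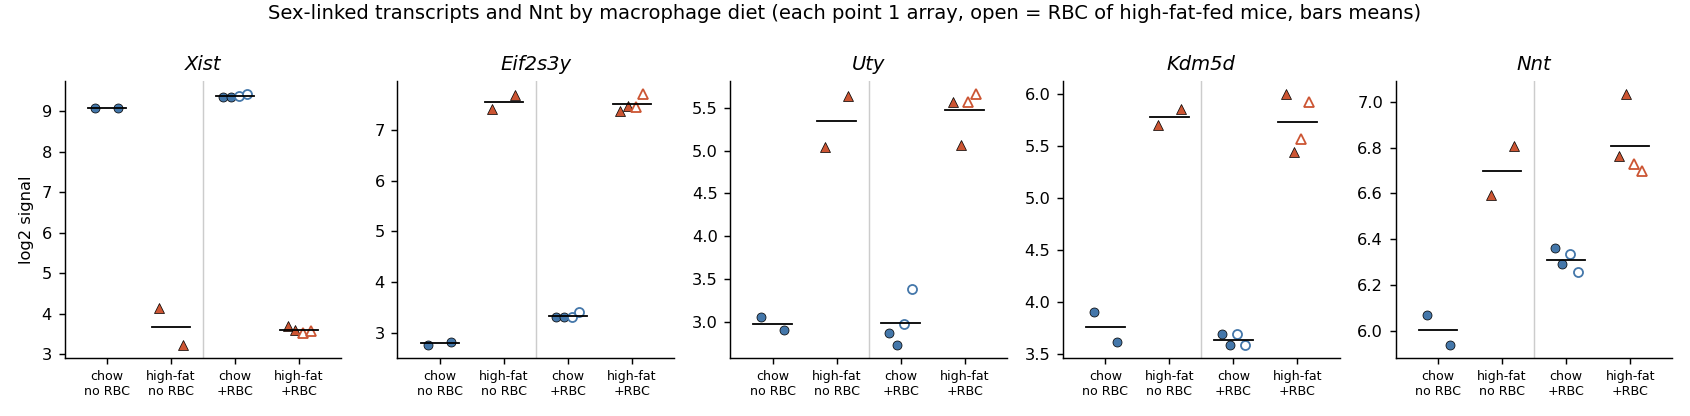
Log2 signal of Xist, Eif2s3y, Uty, Kdm5d and Nnt on each of the 12 arrays, by macrophage diet and RBC exposure; each point is 1 array, open symbols mark RBC of high-fat-fed mice and bars mark means. In every panel the chow and high-fat arrays without RBC occupy separate ranges, with Xist near 9 on chow arrays and the Y-linked genes higher on high-fat arrays.

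The cells carried the general markers of macrophages on every array. Cd68, a lysosomal glycoprotein abundant in macrophages, read 12.09 and 12.14 on the chow arrays and 12.10 and 12.19 on the high-fat arrays, a difference of 0.03 ± 0.09 that did not pass. Adgre1, which encodes the F4/80 antigen, read 10.08 and 10.21 on the chow arrays and 9.03 and 8.93 on the high-fat arrays and fell by 1.17 ± 0.11 (adjusted p = 4.2e-06). Csf1r, the receptor for macrophage colony-stimulating factor, read 10.61 and 10.69 on the chow arrays and 9.77 and 9.91 on the high-fat arrays and fell by 0.81 ± 0.10 (adjusted p = 5.5e-05). Of 23 measured macrophage identity genes, 3 were higher, 9 were lower and 11 did not pass, with a median difference of -0.05, and the 3 became 1 without chow replicate 2 or high-fat replicate 2. Replicate arrays differed with a standard deviation of 0.175 over genes for chow and 0.239 for high-fat macrophages, against 0.151 to 0.191 in the exposed groups, and 6 genes of the high-fat arrays lay more than 1 log2 unit apart. Markers of T and NK cells averaged between 4.42 and 4.66 on the 4 arrays, and 0 of their 21 measured genes passed the limma test, though 4 fell without high-fat replicate 1 and 3 without chow replicate 1. Markers of neutrophils averaged 5.36 and 5.37 on the chow arrays and 5.10 and 4.98 on the high-fat arrays, with 5 of 18 lower. Fewer cells of a type and less RNA per cell cannot be told apart in such cultures.

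Elicited macrophages sense microbial products and damage through Toll-like and C-type lectin receptors, which act through the transcription factor NF-kB on cytokine and chemokine genes. Interferons secreted by the same cells act back on them through STAT and IRF factors and induce antiviral genes, GTPases that attack intracellular microbes, and antigen presentation. In other states macrophages proliferate, remodel matrix and adhere, use the serum response factor SRF and the co-activator YAP on cytoskeletal genes, and tune sterol synthesis through SREBP factors and cholesterol export through LXR receptors.

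In the comparison of the diets without RBC, 2687 of 19166 genes passed the test (14.0%), 1548 of them higher (8.08%) and 1139 lower (5.94%) in high-fat macrophages. Large differences were more often falls than rises. At a difference of at least 1, 269 genes fell and 114 rose, at 2 or more 78 fell and 6 rose, and at 3 or more 24 fell and 0 rose. On each of these 2687 genes both high-fat arrays lay beyond both chow arrays, as they did for 9394 genes in all (49%). For a called gene, separate groups therefore add nothing to the call. The median difference over all genes was -0.01. Without chow replicate 2 the count was 1558, of which 837 were higher and 721 lower, and with the 4 arrays fitted alone it was 1724.

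**Figure D2:**
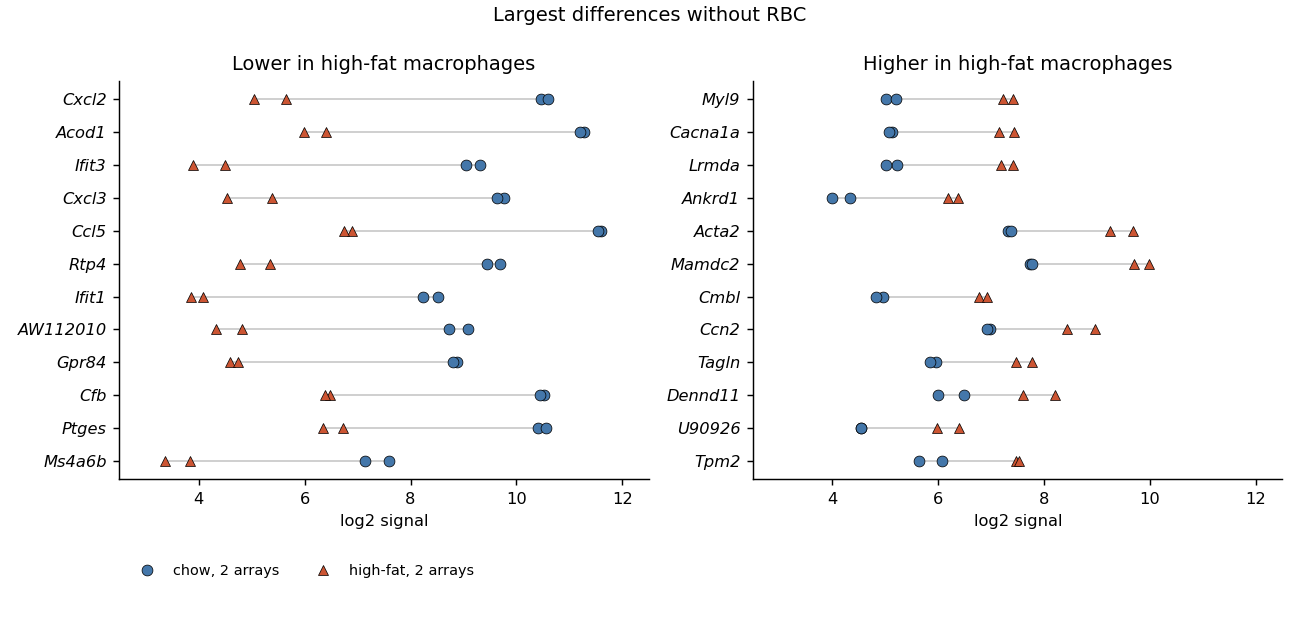
Log2 signal on the 4 arrays without RBC for 12 genes that fell and 12 that rose, taken from the largest differences of the comparison; circles are the 2 chow arrays and triangles the 2 high-fat arrays. The 24 genes were chosen among genes whose groups do not overlap, and the gaps are wider among the genes that fell.

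Chemokine genes held the largest fall of the comparison. Of 25 measured chemokine genes, 16 fell, 2 rose and 7 did not pass, with a median difference of -0.98, and 4 rose without high-fat replicate 1. Cxcl2, which attracts neutrophils through the receptor Cxcr2, read 10.46 and 10.60 on the chow arrays and 5.04 and 5.65 on the high-fat arrays. Both high-fat arrays were far below both chow arrays, and the fall of 5.19 ± 0.15 is 36.4-fold (adjusted p = 4.4e-11). Cxcl3, a close relative with the same receptor, read 9.77 and 9.64 on the chow arrays and 5.38 and 4.53 on the high-fat arrays and fell by 4.75 ± 0.22 (adjusted p = 3.9e-09). Cxcl1, the third neutrophil attractant of that cluster, fell less, from 8.46 and 8.36 to 7.10 and 6.76, by 1.48 ± 0.12 (adjusted p = 1.2e-06). In each of the 3 genes the groups were separate.

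Chemokines for other leukocytes fell too. Ccl5, which attracts T cells and monocytes, read 11.60 and 11.54 on the chow arrays and 6.89 and 6.75 on the high-fat arrays, a fall of 4.75 ± 0.14 or 26.9-fold (adjusted p = 6.5e-11). Ccl3, which attracts monocytes, fell by 1.47 ± 0.09, Ccl9, a ligand of Ccr1, by 2.07 ± 0.14, and Cxcl16, a membrane-bound chemokine that also takes up oxidized lipoprotein, by 1.68 ± 0.10. Cxcl10, an interferon-induced ligand of Cxcr3 on T cells, read 7.65 and 7.28 on the chow arrays and 4.48 and 4.91 on the high-fat arrays and fell by 2.77 ± 0.23 (adjusted p = 1.2e-06). Ccl22, which attracts regulatory and type 2 T cells, fell from 7.41 and 7.09 to 5.29 and 4.46, by 2.37 ± 0.22 (adjusted p = 3.4e-06). Ccl2, the main monocyte attractant, stood apart from these genes. It read 8.33 and 7.98 on the chow arrays and 8.12 and 8.81 on the high-fat arrays, with overlapping groups and a difference of 0.31 ± 0.18 (adjusted p = 0.33), and without high-fat replicate 1 the difference was 0.66 (adjusted p = 0.015).

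Inflammatory cytokines and NF-kB targets were lower as well. Of 33 measured members of that list, 20 fell, 1 rose and 12 did not pass, with a median difference of -0.74. Tnf read 10.09 and 10.19 on the chow arrays and 8.0 and 7.95 on the high-fat arrays and fell by 2.16 ± 0.11, 4.48-fold (adjusted p = 8.4e-09). Il1b, the precursor of interleukin-1 beta, read 5.77 and 5.51 on the chow arrays and 3.82 and 3.80 on the high-fat arrays and fell by 1.83 ± 0.15 (adjusted p = 1e-06). For both cytokines the high-fat arrays lay below the chow arrays. The 2 high-fat readings of Il1b were also below the lower quartile of all genes, so its fall may be understated. Traf1, an adaptor of TNF receptor signalling, fell by 2.69 ± 0.11, and Sod2, the mitochondrial superoxide dismutase induced by NF-kB, by 1.77 ± 0.10. Icam1, the endothelial and leukocyte adhesion molecule, fell by 1.63 ± 0.10 and Cd40, a co-stimulatory receptor, by 1.61 ± 0.11. Genes of the NF-kB system itself fell, Bcl3 by 1.91 ± 0.15 and the inhibitor gene Nfkbie by 1.83 ± 0.13 (adjusted p = 2.2e-07). Nfkbie read 7.83 and 7.91 on the chow arrays and 5.98 and 6.11 on the high-fat arrays.

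Not all cytokine genes were lower. Csf1, macrophage colony-stimulating factor and the ligand of Csf1r, was the 1 member of the list that rose, from 7.11 and 7.01 to 8.57 and 8.66, by 1.55 ± 0.10 (adjusted p = 1e-07). Il6 read 2.66 and 2.71 on the chow arrays and 3.13 and 2.62 on the high-fat arrays and Il10 3.05 and 3.35 on the chow arrays and 3.13 and 3.16 on the high-fat arrays, with differences of 0.19 ± 0.16 and -0.06 ± 0.11 that did not pass. All 4 readings of both genes were below the lower quartile of all genes, where a fall may not be measurable. Il12b was at -0.34 ± 0.14 and Il1rn, the interleukin-1 receptor antagonist, at -0.29 ± 0.10, and neither passed. Il1rn passed without high-fat replicate 2 (-0.39, adjusted p = 0.04).

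The promoters of Cxcl2 and Nfkbie are shown because they belong to the chemokine and the NF-kB target with the largest falls among those with the NF-kB consensus in the stretch before the start site, where it is in capitals. The stretches are the 250 bases before the start site in the RefSeq annotation of GRCm38.p6, on the plus strand, at chr5:90903649-90903898 for Cxcl2 and chr17:45555450-45555699 for Nfkbie. In Cxcl2 the capitals hold 2 overlapping matches that begin 97 and 96 bases before the start, and in Nfkbie 1 match that begins 106 bases before it.
Cxcl2: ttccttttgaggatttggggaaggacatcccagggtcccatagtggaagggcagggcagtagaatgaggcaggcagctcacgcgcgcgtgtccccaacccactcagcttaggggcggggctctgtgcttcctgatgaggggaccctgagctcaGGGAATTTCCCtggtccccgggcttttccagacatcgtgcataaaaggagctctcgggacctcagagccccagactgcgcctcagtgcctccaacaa
Nfkbie: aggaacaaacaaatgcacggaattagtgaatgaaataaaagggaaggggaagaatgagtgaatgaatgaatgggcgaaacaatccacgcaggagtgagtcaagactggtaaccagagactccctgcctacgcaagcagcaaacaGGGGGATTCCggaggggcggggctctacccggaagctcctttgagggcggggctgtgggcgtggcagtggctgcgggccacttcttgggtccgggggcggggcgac
The consensus, searched on both strands from 250 bases before to 50 after the start, was present in 12 of 22 promoters (54.5%) of the called NF-kB list members and in 5 of 13 (38.5%) of the called chemokine genes, against 1480 of 32851 (4.51%) of all promoters in the table. Over all measured NF-kB list members, called or not, it was present in 13 of 30 promoters (43.3%). For all measured chemokine genes it was 5 of 16 (31.25%). A match describes the letters and is not evidence of a bound site. The part of any motif in the diet difference was not tested.

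Interferon-stimulated genes fell almost as a block. Of 34 measured members, 33 fell, 0 rose and 1 did not pass, with a median difference of -1.56, against 5.94% lower among all genes. Ifit3, an antiviral protein that binds foreign RNA together with its relatives, read 9.32 and 9.04 on the chow arrays and 4.50 and 3.89 on the high-fat arrays, a fall of 4.98 ± 0.22 with the high-fat arrays near the lower quartile of all genes (adjusted p = 3.5e-09). Ifit1 read 8.51 and 8.23 on the chow arrays and 4.08 and 3.86 on the high-fat arrays and fell by 4.40 ± 0.20 (adjusted p = 3.5e-09). Rtp4, an interferon-induced chaperone of receptor transport, read 9.69 and 9.45 on the chow arrays and 5.35 and 4.77 on the high-fat arrays and fell by 4.51 ± 0.19 (adjusted p = 1.9e-09). Both chow arrays were high and both high-fat arrays low for each of these. Irf7, the factor that amplifies type I interferon production, read 9.27 and 9.19 on the chow arrays and 5.98 and 5.39 on the high-fat arrays and fell by 3.54 ± 0.20 (adjusted p = 3.1e-08). Zbp1, a sensor of Z-form nucleic acid, fell by 3.16 ± 0.18, Ifi205, of the interferon-inducible DNA sensor family, by 3.76 ± 0.12, and Oas2, a sensor of double-stranded RNA, by 2.09 ± 0.10. Bst2, a tethering factor for budding virus, fell by 1.54 ± 0.10.

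Guanylate-binding proteins and immunity-related GTPases, induced mostly by interferon gamma, followed. Of 8 measured members, 7 fell, 0 rose and 1 did not pass, with a median difference of -1.32. Gbp5, which promotes inflammasome activation, read 5.92 and 5.81 on the chow arrays and 3.22 and 3.0 on the high-fat arrays and fell by 2.75 ± 0.21 (adjusted p = 6.9e-07). Gbp3 read 6.93 and 6.79 on the chow arrays and 4.85 and 4.92 on the high-fat arrays and fell by 1.97 ± 0.19 (adjusted p = 7.2e-06). The groups were separate for both.

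The promoters of Ifit3 and Gbp5 are shown because they belong to the interferon-stimulated gene and the GTPase gene with the largest falls among those with the core of the interferon-stimulated response element, GAAANNGAA on either strand, before the start site, where it is in capitals. They are again the 250 bases before the start on the plus strand of GRCm38.p6 from RefSeq, at chr19:34583279-34583528 for Ifit3 and chr3:142496684-142496933 for Gbp5. Ifit3 has 3 matches, which begin 155, 121 and 102 bases before the start, and Gbp5 has 1, which begins 164 bases before it.
Ifit3: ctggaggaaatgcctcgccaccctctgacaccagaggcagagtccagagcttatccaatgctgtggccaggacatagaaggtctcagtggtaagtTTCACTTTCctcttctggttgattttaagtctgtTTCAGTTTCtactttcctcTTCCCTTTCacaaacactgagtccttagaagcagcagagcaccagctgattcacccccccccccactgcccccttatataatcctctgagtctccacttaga
Gbp5: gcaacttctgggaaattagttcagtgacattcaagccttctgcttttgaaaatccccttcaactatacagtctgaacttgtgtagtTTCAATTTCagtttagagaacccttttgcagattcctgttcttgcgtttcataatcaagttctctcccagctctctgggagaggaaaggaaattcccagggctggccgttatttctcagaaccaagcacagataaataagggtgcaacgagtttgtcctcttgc
The core was present in 16 of 29 promoters (55.2%) of the called interferon-stimulated genes and in 4 of 5 of the called GTPase genes, against 2812 of 32851 (8.56%) of all promoters. Over all measured members of these lists, called or not, it was present in 16 of 32 and in 4 of 5 promoters.

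Antigen presentation genes were lower in high-fat macrophages, and so were 10 of 19 measured B cell markers. Of 19 measured presentation genes, 14 fell, 0 rose and 5 did not pass, with a median difference of -0.83. The class II chain gene H2-Aa read 10.43 and 10.29 on the chow arrays and 7.86 and 8.02 on the high-fat arrays and fell by 2.42 ± 0.11 (adjusted p = 4.4e-09). H2-Ab1 read 10.20 and 10.03 on the chow arrays and 7.93 and 7.63 on the high-fat arrays and fell by 2.34 ± 0.14 (adjusted p = 6.8e-08). Cd74, the invariant chain that guides class II molecules, fell from 10.53 and 10.49 to 7.73 and 8.10, by 2.59 ± 0.12 (adjusted p = 6.3e-09). The diets did not overlap in any of these. Cd86, a co-stimulatory ligand for T cells, fell by 1.74 ± 0.10, Tap1, a peptide transporter of the class I pathway, by 1.66 ± 0.12, and Cd274, the inhibitory ligand PD-L1, by 1.30 ± 0.10. Ciita, the class II transactivator, read 4.63 and 4.66 on the chow arrays and 4.42 and 4.28 on the high-fat arrays, and its difference of -0.29 ± 0.11 did not pass.

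B cells also express class II genes, and more of their markers fell than rose. Of 19 measured B cell markers, 10 fell, 1 rose and 8 did not pass, with a median difference of -0.34. Their mean level was 5.45 and 5.50 on the chow arrays and 4.96 and 4.84 on the high-fat arrays. Cd79a, a chain of the B cell receptor, read 5.38 and 5.94 on the chow arrays and 3.65 and 3.29 on the high-fat arrays and fell by 2.19 ± 0.17 (adjusted p = 6.4e-07). Its partner chain gene Cd79b fell by 1.60 ± 0.12 and Ms4a1, which encodes CD20, by 1.35 ± 0.14. Cd22, another marker of the list, went the other way. It read 7.38 and 7.54 on the chow arrays and 8.05 and 8.16 on the high-fat arrays. Without high-fat replicate 2 the count of B cell markers that fell was 5, and without chow replicate 1 it was 6. The part of B cells in the difference of the class II genes was not tested.

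**Figure D3:**
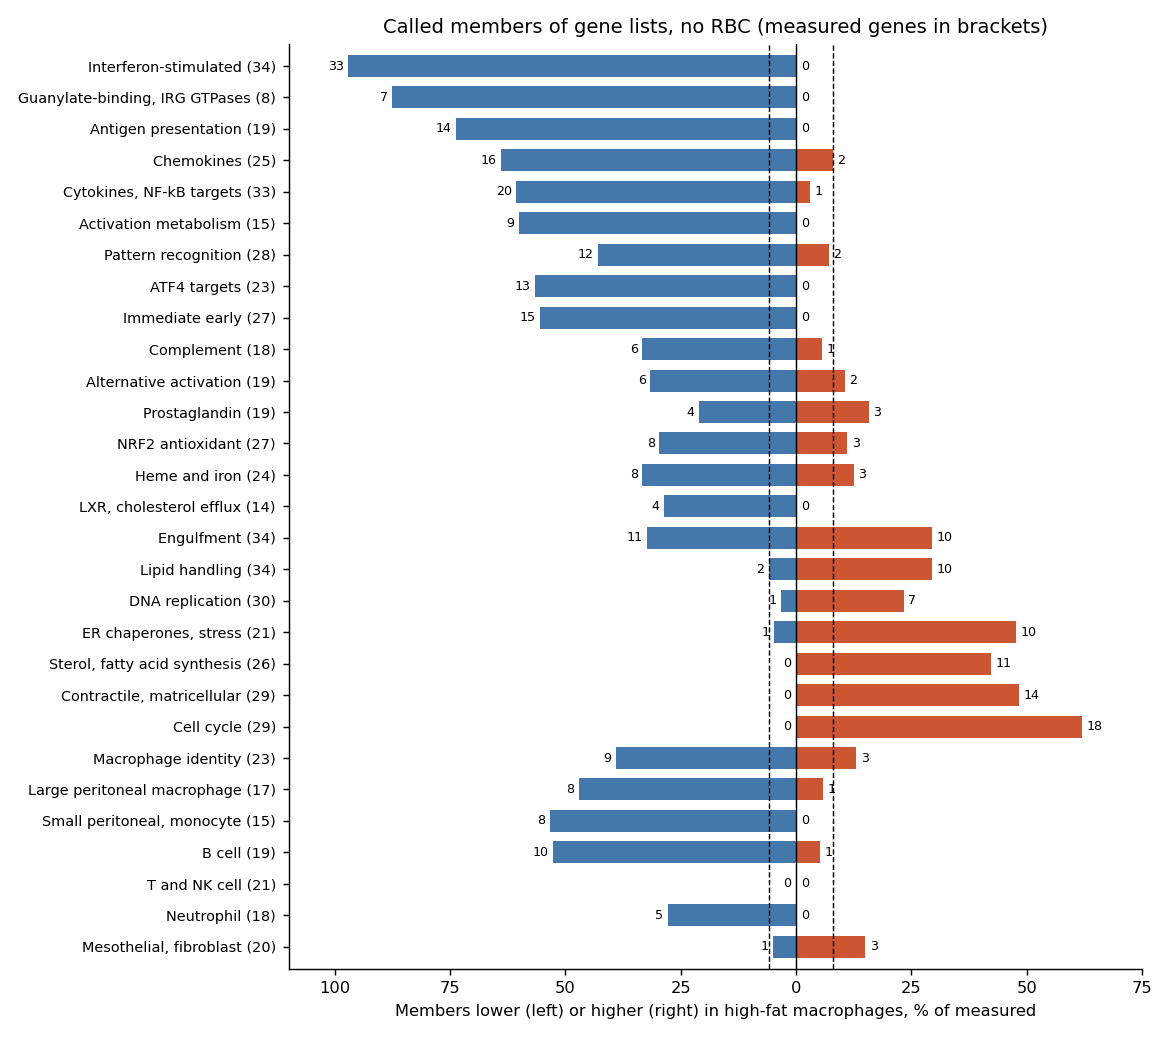
Percentage of the measured members of each gene list that were higher (right) or lower (left) in high-fat macrophages without RBC, for lists of gene functions and of cell types; numbers beside the bars are counts of called members, and dashed lines mark the percentages over all 19166 genes, 8.08% higher and 5.94% lower. Interferon-stimulated genes have 33 of 34 members lower, and cell cycle genes 18 of 29 higher.

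Receptors for microbial products mostly fell or did not pass, where 5.94% of all genes fell and 8.08% rose. Of 28 measured pattern recognition genes, 12 fell, 2 rose and 14 did not pass, and the 2 became 1, 0 and 1 without chow replicate 1, chow replicate 2 and high-fat replicate 2. Clec4e, the lectin Mincle that binds mycobacterial glycolipid, read 11.21 and 11.19 on the chow arrays and 7.44 and 7.77 on the high-fat arrays and fell by 3.60 ± 0.11 (adjusted p = 9.2e-11). Tlr2, the receptor for bacterial lipoprotein, read 9.15 and 9.09 on the chow arrays and 6.88 and 6.45 on the high-fat arrays and fell by 2.46 ± 0.14 (adjusted p = 2.3e-08). Cd14, the co-receptor for lipopolysaccharide, fell by 1.82 ± 0.14, the inflammasome sensor gene Nlrp3 by 2.14 ± 0.11, and Casp4, the caspase that detects lipopolysaccharide in the cytosol, by 2.85 ± 0.12. Tlr4, the lipopolysaccharide receptor, did not follow. It read 8.47 and 8.23 on the chow arrays and 8.35 and 8.34 on the high-fat arrays, with a difference of -0.01 ± 0.10 (adjusted p = 0.98).

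Enzymes and receptors of activated macrophage metabolism were among the largest falls. Of 15 measured genes, 9 fell, 0 rose and 6 did not pass, with a median difference of -0.92. Acod1, which makes itaconate from an intermediate of the citric acid cycle, read 11.28 and 11.21 on the chow arrays and 5.98 and 6.39 on the high-fat arrays, a fall of 5.06 ± 0.18 or 33.3-fold (adjusted p = 3.1e-10). Gpr84, a receptor for medium-chain fatty acids, read 8.87 and 8.80 on the chow arrays and 4.59 and 4.74 on the high-fat arrays and fell by 4.17 ± 0.11 (adjusted p = 3.1e-11). Both genes were bright on the chow arrays and dim on the high-fat arrays. Arg1, the arginase of alternatively activated macrophages, fell from 8.96 and 8.70 to 6.98 and 6.83, by 1.93 ± 0.15 (adjusted p = 9e-07), and Slc7a2, the transporter that imports arginine, by 2.10 ± 0.10. Nos2, the inducible nitric oxide synthase that competes with Arg1 for arginine, read 4.28 and 4.71 on the chow arrays and 4.79 and 4.33 on the high-fat arrays, with overlapping groups and a difference of 0.06 ± 0.16.

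Prostaglandin genes moved in both directions. Of 19 measured, 4 fell, 3 rose and 12 did not pass, where 5.94% of all genes fell and 8.08% rose. Ptges, the inducible synthase that makes prostaglandin E, read 10.41 and 10.55 on the chow arrays and 6.34 and 6.73 on the high-fat arrays and fell by 3.95 ± 0.14, 15.4-fold (adjusted p = 2.3e-10). Ptgs2, the inducible cyclooxygenase upstream of it, read 8.57 and 8.59 on the chow arrays and 6.75 and 6.69 on the high-fat arrays and fell by 1.86 ± 0.12 (adjusted p = 1.2e-07). Hpgds, which turns the same precursor into prostaglandin D, went the other way, from 7.75 and 7.70 to 8.66 and 9.03, a rise of 1.12 ± 0.13 (adjusted p = 3.9e-05). Without chow replicate 2 the counts were 2 lower and 1 higher.

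Markers of alternative activation did not move together, in a comparison where 5.94% of all genes fell and 8.08% rose. Of 19 measured, 6 fell, 2 rose and 11 did not pass, with a median difference of -0.19. Retnla, a secreted protein induced by interleukin-4, read 7.16 and 7.12 on the chow arrays and 4.39 and 3.97 on the high-fat arrays and fell by 2.96 ± 0.21 (adjusted p = 2.4e-07). Il4ra, the receptor chain for that cytokine, fell by 1.22 ± 0.09, and Mrc1, the mannose receptor, rose by 0.78 ± 0.10 (adjusted p = 6.8e-05). Without each of the 4 arrays in turn, 1 marker rose. Complement genes had 6 of 18 lower and 1 higher, with 2 higher without chow replicate 1 and 4 without high-fat replicate 1. Cfb, factor B of the alternative pathway, read 10.52 and 10.45 on the chow arrays and 6.48 and 6.39 on the high-fat arrays and fell by 4.05 ± 0.11, 16.5-fold (adjusted p = 2.7e-11), and C1qa, a chain of the classical pathway's C1q, fell by 1.98 ± 0.17. Hp, the hemoglobin-binding protein haptoglobin, read 10.07 and 10.16 on the chow arrays and 6.61 and 6.89 on the high-fat arrays and fell by 3.37 ± 0.11 (adjusted p = 1.4e-10). Aoah, which detoxifies lipopolysaccharide by removing fatty acids, fell by 3.18 ± 0.16.

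Genes of engulfment fell and rose in near equal numbers. Of 34 measured, 11 fell, 10 rose and 13 did not pass, with a median difference of 0.04. Fcgr1, the high-affinity receptor for IgG, read 8.29 and 8.26 on the chow arrays and 6.53 and 6.40 on the high-fat arrays and fell by 1.81 ± 0.11 (adjusted p = 4e-08). Marco, a scavenger receptor for bacteria and particles, fell by 1.77 ± 0.14. The integrin chain genes Itgb3 and Itgb5, parts of the receptors that recognize apoptotic cells, rose by 1.52 ± 0.15 and 1.11 ± 0.10. Pros1, a bridge between such cells and the receptor Mertk, read 6.27 and 6.06 on the chow arrays and 7.19 and 7.52 on the high-fat arrays and rose by 1.19 ± 0.12 (adjusted p = 1.3e-05).

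Contractile and matricellular genes were among the largest rises. Of 29 measured, 14 rose, 0 fell and 15 did not pass in the limma test, against 8.08% higher among all genes. Their median difference was 0.36. The count of falls changed without high-fat replicate 2. Myl9, a regulatory light chain of smooth muscle and nonmuscle myosin, read 5.0 and 5.20 on the chow arrays and 7.23 and 7.41 on the high-fat arrays, a rise of 2.22 ± 0.13 or 4.65-fold (adjusted p = 4e-08). Acta2, smooth muscle actin, read 7.31 and 7.38 on the chow arrays and 9.24 and 9.67 on the high-fat arrays and rose by 2.11 ± 0.12 (adjusted p = 4.3e-08). Ankrd1, a nuclear and sarcomeric ankyrin repeat protein induced by YAP, read 3.98 and 4.33 on the chow arrays and 6.37 and 6.19 on the high-fat arrays and rose by 2.12 ± 0.14 (adjusted p = 1.7e-07). Both high-fat arrays were above both chow arrays for all 3. The matricellular growth factor binders Ccn2 and Ccn1 rose by 1.75 ± 0.16 and 1.5 ± 0.13, the actin-binding genes Tagln and Tpm2 by 1.72 ± 0.12 and 1.64 ± 0.15. Thbs1, a matricellular glycoprotein, read 8.63 and 8.63 on the chow arrays and 8.78 and 8.99 on the high-fat arrays, and its difference of 0.25 ± 0.10 did not pass (adjusted p = 0.13), though after quantile normalization it did (0.32, adjusted p = 0.034).

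Fibroblasts and mesothelial cells express these genes strongly. Of 20 of their markers, 3 rose, 1 fell and 16 did not pass, with a median difference of 0.05, against 8.08% higher and 5.94% lower among all genes, and 2 fell without chow replicate 1 or high-fat replicate 1. Pdgfra, a growth factor receptor of fibroblasts, read 6.32 and 6.23 on the chow arrays and 7.06 and 7.04 on the high-fat arrays and rose by 0.78 ± 0.10 (adjusted p = 8.4e-05), and the collagen gene Col1a2 rose by 0.69 ± 0.09. Msln, which marks mesothelium, read 4.33 and 4.53 on the chow arrays and 4.26 and 4.42 on the high-fat arrays, with a difference of -0.09 ± 0.12. The mean level of the 20 markers was 5.48 and 5.55 on the chow arrays and 5.58 and 5.55 on the high-fat arrays. The part of such cells in the rise of the contractile genes was not tested.

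The promoter of Myl9 is shown because Myl9 has the largest rise among the contractile genes with a CArG box, the element to which SRF binds, before the start site. The box is in capitals. It is the stretch of 250 bases before the start on the plus strand at chr2:156775214-156775463 of GRCm38.p6, from RefSeq, and the match begins 161 bases before the start.
Myl9: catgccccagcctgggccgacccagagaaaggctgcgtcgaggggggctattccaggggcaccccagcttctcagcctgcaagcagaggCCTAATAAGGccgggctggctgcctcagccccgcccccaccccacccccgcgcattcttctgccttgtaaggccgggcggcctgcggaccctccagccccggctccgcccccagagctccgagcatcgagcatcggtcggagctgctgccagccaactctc
The box was present in 2 of 12 promoters (16.7%) of the called contractile genes, against 535 of 32851 (1.63%) of all promoters. Over all measured members of the list, called or not, it was present in 4 of 27 (14.8%).

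Cell cycle genes were higher in high-fat macrophages. Of 29 measured genes of mitosis and its control, 18 rose, 0 fell and 11 did not pass, with a median difference of 0.49. Bub1, a kinase of the spindle checkpoint, read 3.56 and 3.49 on the chow arrays and 4.67 and 5.07 on the high-fat arrays and rose by 1.34 ± 0.13 (adjusted p = 5.7e-06). Prc1, which bundles the microtubules of the central spindle, read 4.32 and 4.29 on the chow arrays and 5.28 and 5.25 on the high-fat arrays and rose by 0.96 ± 0.10 (adjusted p = 1.9e-05). Cdk1, the mitotic kinase, rose by 0.87 ± 0.11, and Top2a, the topoisomerase of dividing cells, by 0.78 ± 0.11. Mki67, the proliferation antigen Ki-67, read 5.57 and 5.72 on the chow arrays and 6.05 and 5.76 on the high-fat arrays, with overlapping groups and a difference of 0.26 ± 0.12 that did not pass. Without high-fat replicate 2 the count of genes that rose was 11. The DNA replication list gave 7 higher, 1 lower and 22 not passing of 30, with Rrm1, a subunit of ribonucleotide reductase, at 0.88 ± 0.11 and Cdc6, a licensing factor of replication origins, at 0.76 ± 0.14, and its count was 3 higher without chow replicate 1 and 2 lower without high-fat replicate 2. Mcm5, a subunit of the replicative helicase, was at 0.05 ± 0.13 and did not pass. The E2F sites TTTCCCGC and TTTGGCGC, searched on both strands, were present in 2 of 6 promoters (33.3%) of called replication genes and in 0 of 16 of called cell cycle genes, against 1.56% of all promoters. Over all measured members of these lists, called or not, they were present in 10 of 31 (32.3%) and 0 of 25.

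Sterol synthesis genes were higher, while genes of cholesterol export were lower or did not pass. Of 26 measured genes of sterol and fatty acid synthesis, 11 rose, 0 fell and 15 did not pass, with a median difference of 0.32. Dhcr7, the last enzyme of cholesterol synthesis, read 7.08 and 7.08 on the chow arrays and 8.53 and 8.70 on the high-fat arrays and rose by 1.54 ± 0.12, 2.90-fold (adjusted p = 9.3e-07). Idi1 and Hmgcs1, enzymes early in the pathway, rose by 0.74 ± 0.10 and 0.60 ± 0.10, and Msmo1 and Lss, later ones, by 0.74 ± 0.09 and 0.65 ± 0.10. Scd2, a fatty acid desaturase, read 6.85 and 6.87 on the chow arrays and 7.49 and 8.03 on the high-fat arrays and rose by 0.90 ± 0.18 (adjusted p = 0.0037). Its paralog Scd1 and the regulator Srebf1 were at -0.01 ± 0.15 and -0.04 ± 0.10 and did not pass. Of 14 genes of the LXR and efflux list, 4 fell, 0 rose and 10 did not pass, and 2 rose without high-fat replicate 1. Abca1, which loads cholesterol onto apolipoprotein, read 9.17 and 9.22 on the chow arrays and 8.13 and 8.33 on the high-fat arrays and fell by 0.97 ± 0.11 (adjusted p = 2.4e-05), and Nr1h3, which encodes LXR alpha, fell by 0.71 ± 0.10. Abcg1, the exporter to mature lipoprotein, was at -0.03 ± 0.11 and did not pass.

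Genes of lipid uptake, storage and oxidation were more often higher than lower, where 8.08% of all genes rose and 5.94% fell. Of 34 measured, 10 rose, 2 fell and 22 did not pass, with a median difference of 0.14, and 1 fell without each of the 4 arrays in turn. Hadhb, a subunit of the mitochondrial beta-oxidation enzyme, rose by 0.91 ± 0.12, and Cpt1a, which admits fatty acids to the mitochondrion, by 0.68 ± 0.11. Fabp4 and Fabp3, both fatty acid carriers, went opposite ways. Fabp4 read 9.85 and 9.61 on the chow arrays and 10.42 and 10.30 on the high-fat arrays and rose by 0.63 ± 0.10 (adjusted p = 0.00066), and Fabp3 read 9.09 and 8.96 on the chow arrays and 7.33 and 7.67 on the high-fat arrays and fell by 1.53 ± 0.13 (adjusted p = 1.3e-06). Trem2, a lipid receptor of macrophages, rose by 0.63 ± 0.10. Plin2, the coat protein of lipid droplets, read 11.30 and 11.39 on the chow arrays and 11.21 and 11.47 on the high-fat arrays, with overlapping groups and a difference of 0.00 ± 0.11 that did not pass.

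Stress responses divided by pathway, in a comparison where 5.94% of all genes fell and 8.08% rose. Of 23 targets of the amino acid stress factor ATF4, 13 fell, 0 rose and 10 did not pass, with a median difference of -0.50. Slc7a11, the cystine importer, read 9.81 and 9.92 on the chow arrays and 7.85 and 8.09 on the high-fat arrays and fell by 1.89 ± 0.11 (adjusted p = 3e-08). Nupr1, a stress-induced chromatin protein, fell by 1.75 ± 0.10, the pseudokinase gene Trib3 by 1.05 ± 0.10, and Asns, asparagine synthetase, by 1.07 ± 0.10. Genes of the endoplasmic reticulum chaperones gave 10 higher, 1 lower and 10 not passing of 21, and the 10 became 3 without chow replicate 2 and 4 without high-fat replicate 2. Of 27 antioxidant targets of NRF2, 8 fell, 3 rose (1 without chow replicate 2 or high-fat replicate 2) and 16 did not pass. Among them were the quinone reductase gene Nqo1, which fell by 1.02 ± 0.12, and the exporter gene Abcc1, which fell by 1.39 ± 0.09. The microsomal glutathione transferase genes Mgst2 and Mgst3, named among the largest rises, rose by 1.63 ± 0.19 and 1.62 ± 0.14.

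Heme and iron genes gave 8 lower, 3 higher and 13 not passing of 24, against 5.94% lower and 8.08% higher among all genes. Hmox1, the heme-degrading oxygenase, read 11.88 and 11.93 on the chow arrays and 11.28 and 11.62 on the high-fat arrays, with all 4 arrays bright, and fell by 0.46 ± 0.12 (adjusted p = 0.015). It did not pass without chow replicate 1, chow replicate 2 or high-fat replicate 1 (adjusted p = 0.058, 0.1 and 0.12), and the difference without high-fat replicate 1 was -0.29. Lcn2, which captures bacterial iron carriers, read 6.94 and 6.64 on the chow arrays and 5.34 and 5.01 on the high-fat arrays and fell by 1.61 ± 0.13 (adjusted p = 8.2e-07), and Spic, the factor of iron-recycling macrophages, fell by 1.20 ± 0.18. The count of heme and iron genes that fell was 4 without chow replicate 1, 3 without chow replicate 2 and 4 without high-fat replicate 1. Of 27 immediate early genes, 15 fell, 0 rose and 12 did not pass, with a median difference of -0.43, among them the phosphatase gene Dusp1 (-1.40 ± 0.14) and the AP-1 subunit genes Junb (-0.78 ± 0.11) and Fos (-0.62 ± 0.09).

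Genes that distinguish peritoneal macrophage subsets were mostly lower or did not pass. Of 17 markers of large resident macrophages, 8 fell, 1 rose and 8 did not pass, against 5.94% lower and 8.08% higher among all genes. F10, coagulation factor X, fell by 1.01 ± 0.10, and Timd4, a receptor for phosphatidylserine, read 4.92 and 4.96 on the chow arrays and 4.28 and 4.27 on the high-fat arrays and fell by 0.67 ± 0.10 (adjusted p = 0.00023). Gata6, the factor that defines resident peritoneal macrophages, read 6.50 and 6.54 on the chow arrays and 6.96 and 6.84 on the high-fat arrays and rose by 0.38 ± 0.12 (adjusted p = 0.045), but it did not pass without any 1 of the 4 arrays (adjusted p between 0.06 and 0.17). Of 15 markers of small peritoneal macrophages and monocytes, 8 fell, 0 rose and 7 did not pass, and 4 fell without chow replicate 1. Irf4, a factor of monocyte-derived cells, fell by 1.28 ± 0.11, while the monocyte receptor gene Ccr2 was at -0.16 ± 0.15 and did not pass.

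Several of the largest rises belong to no list. Cacna1a, a pore subunit of neuronal calcium channels, read 5.13 and 5.08 on the chow arrays and 7.15 and 7.42 on the high-fat arrays and rose by 2.18 ± 0.12 (adjusted p = 1.5e-08). Lrmda, a leucine-rich repeat gene associated with melanocyte differentiation, read 5.22 and 5.01 on the chow arrays and 7.18 and 7.41 on the high-fat arrays and rose by 2.18 ± 0.17 (adjusted p = 9e-07). Mamdc2, a secreted proteoglycan, rose by 2.09 ± 0.11, Cnr2, the peripheral cannabinoid receptor, by 1.63 ± 0.10, and Hpse, the heparanase that cuts heparan sulfate, by 1.53 ± 0.12. Abcd2, a peroxisomal fatty acid transporter, read 4.71 and 4.34 on the chow arrays and 6.09 and 5.99 on the high-fat arrays and rose by 1.52 ± 0.12 (adjusted p = 9.6e-07). In all of these both high-fat arrays exceeded both chow arrays.

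The same diet comparison on the 8 arrays with RBC gave smaller differences for most of these genes. There 928 genes passed (4.84%), 422 higher (2.20%) and 506 lower (2.64%). Of the 2687 genes called without RBC, 614 were called with RBC in the same direction, 291 higher and 323 lower, 19 were called in the opposite direction and 2054 were not called. The comparisons with and without RBC share no arrays but share an estimate of the spread. The correlation of their differences across the 19166 genes was 0.56, as a description of genes that are not independent. Without chow replicate 1 with high-fat RBC the count with RBC was 551, without chow replicate 2 with high-fat RBC 538, and without high-fat replicate 2 with chow RBC 593.

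With RBC, several of these genes lay between the unexposed levels of the diets. Cxcl2 on the exposed arrays had a median of 7.83 for chow and 7.72 for high-fat macrophages, and a diet difference of -0.12 ± 0.11 (adjusted p = 0.68). That value averages opposite differences. With RBC of chow-fed mice Cxcl2 read 8.06 and 8.0 in chow and 7.34 and 7.26 in high-fat macrophages, a difference of -0.73, and with RBC of high-fat-fed mice 7.59 and 7.66 against 8.13 and 8.11, a difference of 0.49. The diets did not overlap with either kind of RBC, and these differences were not tested. Il1b (-0.59 and 0.22) and Lcn2 (-0.43 and 0.39) also had opposite signs with the RBC of chow-fed and of high-fat-fed mice. With RBC of high-fat-fed mice Il1b overlapped, at 6.28 and 5.78 against 6.34 and 6.16. Neutrophil markers, Lcn2 among them, averaged 5.36 and 5.37 in chow and 5.10 and 4.98 in high-fat macrophages without RBC. With RBC of chow-fed mice they averaged 5.81 and 5.90 in chow and 5.70 and 5.69 in high-fat macrophages. With RBC of high-fat-fed mice they averaged 5.96 and 5.85 against 6.01 and 5.98, and their part was not tested. The neutrophil gene S100a9 read 4.28 and 4.76 in chow and 3.72 and 3.86 in high-fat macrophages without RBC. It read 9.58 and 9.71 against 9.70 and 9.57 with RBC of chow-fed mice. With RBC of high-fat-fed mice it read 9.96 and 9.79 against 10.46 and 10.56. Csf3r did not rise so, with 7.08 and 7.02 in chow macrophages without RBC and 6.78 and 7.01 with RBC of chow-fed mice. Acod1 with RBC also lay between its unexposed levels, with medians of 8.43 and 8.46 and a difference of -0.04 ± 0.13 (adjusted p = 0.93). Tnf had medians of 8.45 and 8.28 and a difference of -0.16 ± 0.08, and Tlr2 of 7.61 and 7.88 and 0.27 ± 0.10, and neither passed. Of 33 cytokine and NF-kB genes, 2 were higher and 1 lower with RBC, where 2.20% of all genes were higher and 2.64% lower. Myl9 with RBC was above its unexposed level on chow arrays, between 7.78 and 8.02, and lay between 7.82 and 8.31 on high-fat arrays, where the difference of 0.20 ± 0.09 did not pass. Of 29 cell cycle genes 0 passed in either direction with RBC, with limma and an adjusted p, against 4.84% of all genes. Their median difference was -0.03.

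Other diet differences were also present on the exposed arrays. Of 19 antigen presentation genes 13 were lower with RBC, of 34 interferon-stimulated genes 19, and of 26 sterol and fatty acid synthesis genes 17 were higher. Among all genes 2.64% were lower and 2.20% higher with RBC. H2-Aa was between 9.50 and 9.69 on chow and between 8.15 and 8.59 on high-fat arrays, a difference of -1.18 ± 0.08 (adjusted p = 4e-07). Irf7 was between 8.45 and 9.09 and between 6.29 and 6.79, a difference of -2.25 ± 0.14 (adjusted p = 2.6e-07). The 4 chow and 4 high-fat arrays did not overlap for either gene. Cfb differed by -2.50 ± 0.07 (adjusted p = 1.1e-10), Ccl5 by -2.69 ± 0.10 (adjusted p = 1.5e-09) and Arg1 by -2.58 ± 0.11 (adjusted p = 4.5e-09). Among the genes that rose, Cacna1a differed by 1.86 ± 0.08 and Lrmda by 2.29 ± 0.12 with RBC, values close to those without, and Dhcr7 by 0.72 ± 0.09. Icam1 went the opposite way, with 0.37 ± 0.07 with RBC (adjusted p = 0.0059) against -1.63 ± 0.10 without.

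**Figure D4:**
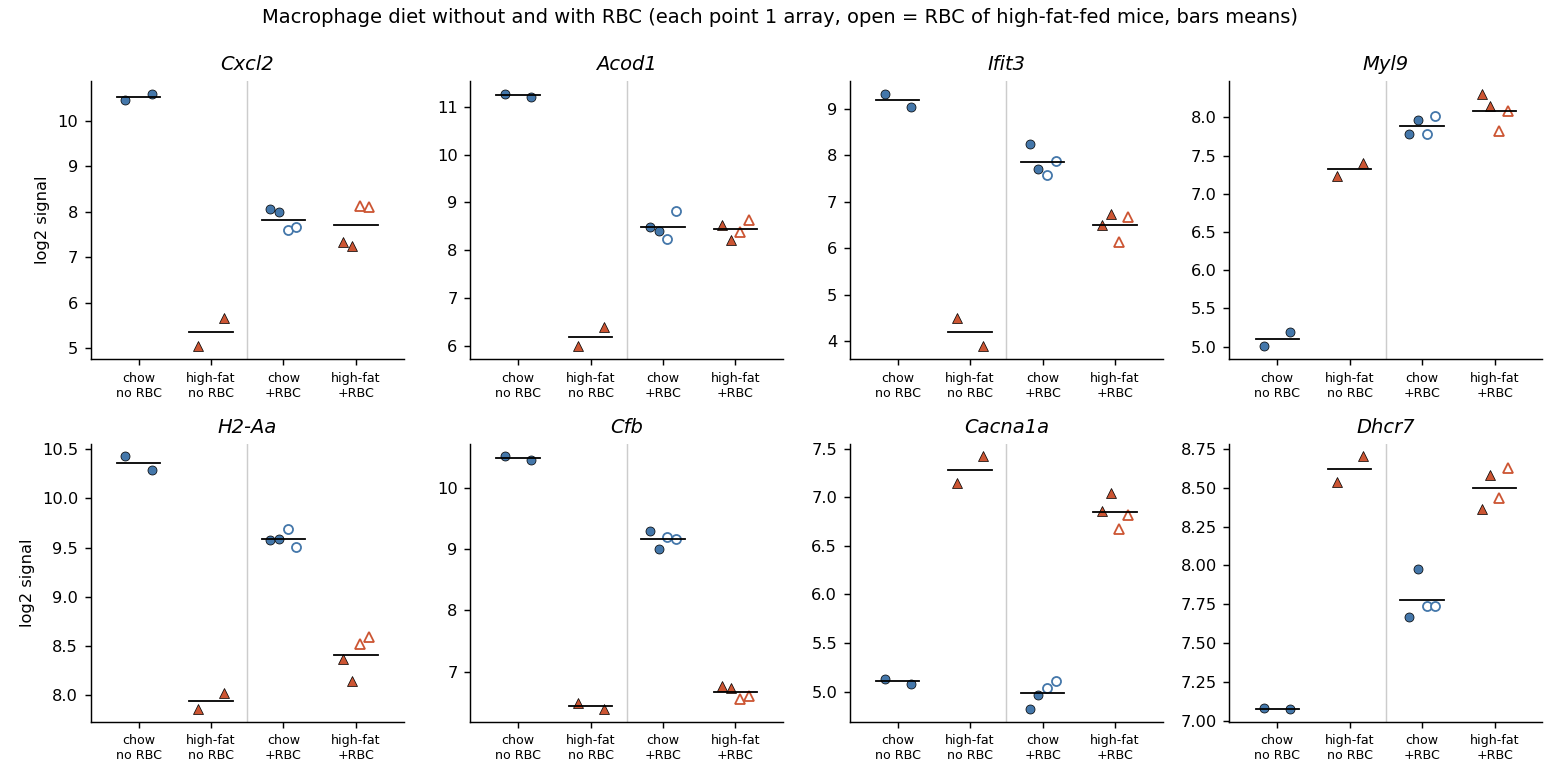
Log2 signal of 8 genes on all 12 arrays, by macrophage diet and RBC exposure; each point is 1 array, open symbols mark RBC of high-fat-fed mice and bars mark means. Acod1 and Myl9 differ between the diets without RBC and overlap with RBC, Cxcl2 differs in opposite directions with the 2 kinds of RBC, and H2-Aa, Cfb and Cacna1a stay apart in both conditions.

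The difference between the 2 diet comparisons was tested as the interaction, the diet difference with RBC minus that without. It passed for 1101 genes (5.74%), with a positive value in 509 (2.66%) and a negative one in 592 (3.09%), and 1025 of these were among the 2687 called without RBC. The interaction contains the difference without RBC, on which most of the named genes were chosen, so a smaller difference with RBC is in part fixed by that choice. In 642 of the 1025 the difference with RBC was smaller and of the same sign, and in 381 it had the opposite sign. The sign was counted however small the difference with RBC was. Of the 2687 genes, 19 were called in the opposite direction with RBC. The count was 551 without chow replicate 2. For Cxcl2 the interaction was 5.07 ± 0.18 (adjusted p = 4.6e-09) and for Myl9 -2.02 ± 0.16 (adjusted p = 4e-06). It did not pass for Cacna1a (-0.31, adjusted p = 0.27), Lrmda (0.12, adjusted p = 0.84), Ccl22 (-0.56, adjusted p = 0.29) and Arg1 (-0.66, adjusted p = 0.061), which does not show that their differences were equal in both conditions.

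**Figure D5:**
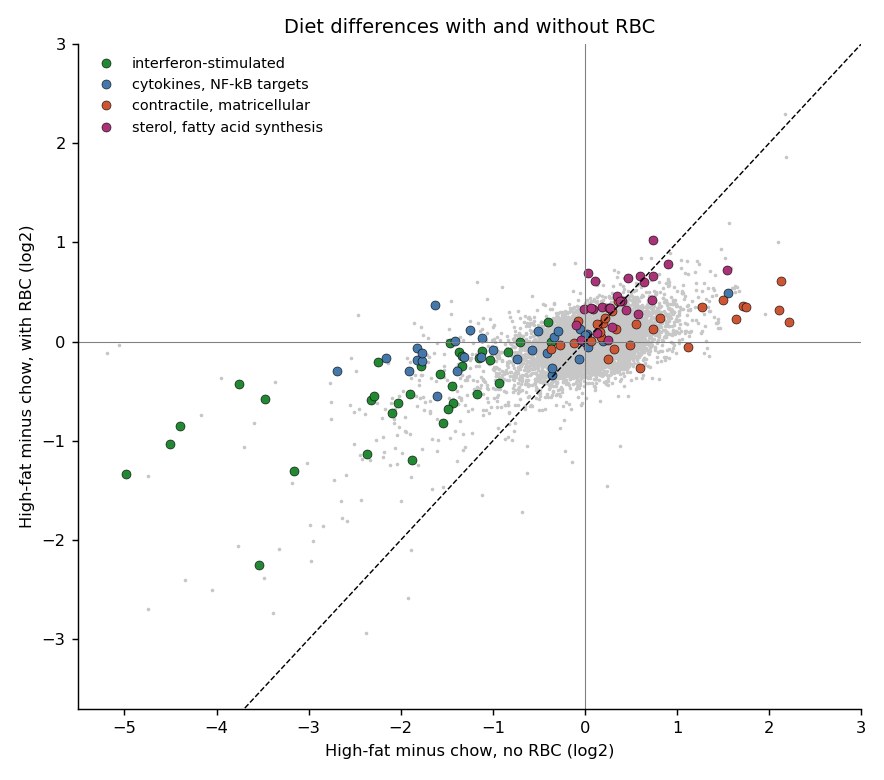
Diet difference (high-fat minus chow, log2) with RBC against that without RBC for 19166 autosomal genes in grey, with members of 4 gene lists in colour; the dashed line marks equal differences. Interferon-stimulated genes lie left of the vertical axis and mostly above the dashed line, and sterol synthesis genes lie right of the vertical axis or close to it, on both sides of the dashed line.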

How the data were processed

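RNA of 12 macrophage cultures in 6 groups of 2 was extracted with RNeasy columns, amplified (WTA-Ovation FFPE V2 kit), labelled with an Encore biotin module and hybridised to Affymetrix Mouse Gene 1.0 ST arrays, per the labels' protocols. The authors deposited 1 log2 signal for each probe set and array, and the summarization, normalization and software behind it are not given in the sources used here. Of 35557 probe sets, 35556 had values, and 23410 were listed in the platform annotation, 21789 with 1 symbol and 1621 with several, which were not used. The other 12146 are unnamed here. For 999 genes with more than 1 probe set the brightest was taken. The fit covered 19938 genes with no filter on low values, and results are given for 19166 autosomal genes.

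limma 3.58.1 in R 4.3.3 fitted 1 mean per group over the 12 arrays (lmFit, eBayes, residual degrees of freedom 6, prior 7.69), with Benjamini-Hochberg adjustment over all genes and a threshold of 0.05. The 2 arrays per group limit the precision. Signal over background was not analysed. Replicate numbers mark different animals across the diets and were not used as pairs. Promoters come from RefSeq, GRCm38.p6. The alternatives were another threshold, a fold minimum, quantile normalization, removal of dim genes, a trended robust fit, array weights, replicate blocks, the mean of probe sets, autosomal genes alone, fewer arrays and leaving out each array.

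The comparison's members and gene lists were chosen with earlier results of these data known. Genes were named by a rule: up to 25 called genes with the largest differences in each direction whose groups did not overlap, up to 8 per list by p, a fixed set, and up to 5 each with like and opposite directions with RBC. The text draws on these after their values were seen.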

Additional observations from a re-analysis of the deposited data

Results flagged for a closer look

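The diet difference itself differed between cultures with and without RBC for 108 of the 145 autosomal genes named here, by the interaction term in limma at an adjusted p below 0.05. It passed for 5.74% of all genes, but most of the genes named were chosen for their difference without RBC, which the interaction contains, so the 2 shares are not comparable. For Cxcl2, Il1b and Lcn2 the value with RBC averages differences of opposite sign with the 2 kinds of RBC. Values are the diet difference with RBC minus that without, in log2 units, so that a gene lower in high-fat macrophages without RBC and less so with RBC has a positive value. No explanation of these values was tested.

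Among chemokine genes the value was 5.07 for Cxcl2, 3.39 for Cxcl3, 1.03 for Cxcl1, 2.05 for Ccl5, 1.61 for Ccl3, 1.39 for Ccl9, 1.09 for Cxcl16 and 2.35 for Cxcl10. Among cytokine and NF-kB genes it was 2.00 for Tnf, 1.64 for Il1b, 2.40 for Traf1, 1.65 for Sod2, 2.00 for Icam1, 1.06 for Cd40, 1.61 for Bcl3, 1.76 for Nfkbie and -1.06 for Csf1. For interferon-stimulated genes it was 3.64 for Ifit3, 3.55 for Ifit1, 3.48 for Rtp4, 1.29 for Irf7, 1.85 for Zbp1, 3.33 for Ifi205, 1.37 for Oas2 and 0.73 for Bst2. Of the genes of these groups given here, which all passed the interaction test, only Csf1, which rose without RBC, had a negative value. Over all 25 measured chemokine genes the interaction passed with a positive value in 10 and with a negative value in 2. For the interferon-induced GTPases it was 2.14 for Gbp5 and 1.48 for Gbp3. For antigen presentation genes it was 1.24 for H2-Aa, 1.15 for H2-Ab1, 1.25 for Cd74, 1.13 for Cd86, 0.68 for Tap1 and 0.66 for Cd274. For the B cell markers it was 1.03 for Cd79a, 0.61 for Cd79b and 0.90 for Ms4a1. All values of the antigen presentation and B cell genes given here were positive. For receptors and sensors of microbial products it was 2.78 for Clec4e, 2.72 for Tlr2, 1.17 for Cd14, 1.92 for Nlrp3, 0.99 for Casp4, 0.69 for Marco and 0.57 for Fcgr1. For itaconate, arginine and prostaglandin genes it was 5.02 for Acod1, 3.43 for Gpr84, 1.49 for Slc7a2, 3.58 for Ptges, 2.05 for Ptgs2 and -0.75 for Hpgds. For genes of alternative activation and complement it was 0.95 for Retnla, 0.82 for Il4ra, -0.62 for Mrc1, 1.55 for Cfb and 0.86 for C1qa. For secreted or enzymatic products of inflammation it was 2.96 for Hp, 1.75 for Aoah and 1.59 for Lcn2. Hpgds and Mrc1, which rose without RBC, were the genes of this paragraph besides Csf1 with a negative value.

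For contractile and matricellular genes it was -2.02 for Myl9, -1.79 for Acta2, -1.52 for Ankrd1, -1.40 for Ccn2, -1.08 for Ccn1, -1.36 for Tagln and -1.42 for Tpm2. For fibroblast markers it was -0.65 for Pdgfra and -0.65 for Col1a2. For cell cycle and replication genes it was -1.49 for Bub1, -0.86 for Prc1, -0.83 for Cdk1, -0.99 for Top2a, -0.79 for Rrm1 and -0.85 for Cdc6. All values of the contractile, fibroblast, cell cycle and replication genes given here were negative. For lipid and sterol genes it was -0.82 for Dhcr7, 0.77 for Abca1, 0.51 for Nr1h3, -0.58 for Hadhb, -0.56 for Fabp4, 1.25 for Fabp3 and -1.02 for Abcd2. For stress, antioxidant and detoxification genes it was 1.53 for Slc7a11, 1.06 for Nupr1, 0.45 for Trib3, 1.10 for Asns, 0.87 for Nqo1, 0.89 for Abcc1, -1.07 for Mgst2 and -1.08 for Mgst3. Among these the genes that rose without RBC had negative values and the genes that fell had positive ones. For immediate early genes it was 0.78 for Dusp1 and 0.59 for Junb. For integrin chain genes it was -0.80 for Itgb3, -0.75 for Itgb5 and -0.99 for Itga6. For macrophage identity and subset genes it was 0.71 for Adgre1, 0.69 for Csf1r, -0.59 for Gata6, 0.45 for Timd4, 0.96 for F10 and 0.92 for Irf4. For other genes with large rises it was -1.09 for Mamdc2, -1.13 for Cnr2 and -0.69 for Hpse. For matrix and hypoxia genes it was 1.5 for Mmp14, 0.94 for Mmp9, -0.65 for Plau, -0.94 for Sparc, -0.74 for Epas1, -1.17 for Pdk1 and 0.46 for Hif1a.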

How the results depend on the processing

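Counts of called genes without RBC (2687, with 1548 higher and 1139 lower) stayed within 1.5 times under an adjusted p below 0.10, quantile normalization (3059), removal of the dimmest 33.3% of genes, a trended robust fit, array weights (1945), both replicate blocks, the mean of probe sets and autosomal genes alone (2691). With a minimum of 1.5-fold they were 1154, 581 higher and 573 lower, and 204 with RBC, by construction of that limit. In the 4 arrays alone they were 1724, 968 higher and 756 lower, with fewer arrays. Leaving out 1 array gave 1558 to 2513 genes without RBC, 837 to 1410 higher and 721 to 1266 lower. It gave 538 to 741 with RBC and 551 to 1089 for the interaction. Without high-fat replicate 2 the higher share of calls was 49.6%, against 57.6%, and the cause was not tested.

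With the replicate block over all groups 2616 genes were called, and within macrophage diet, where the consensus correlation was 0.050, 2700. Animals differ between the diets, so the block pairs no samples of the comparison. Correlations of replicate differences between groups ranged from -0.23 to 0.35. Of the named genes Gata6 alone lost its call under the block over all groups (adjusted p = 0.051), as it did after quantile normalization (0.086), with array weights (0.1) and in the 4 arrays alone (0.09), where Hmox1 lost its call too (0.068). Il1rn passed in the trended robust fit (0.024). None of the 131 named genes that were called changed direction under any alternative run, whereas 13 of the 18 that were not called did in at least 1, as did the medians of 13 of 40 gene lists, all at most 0.10 from 0. The groups of the called genes did not overlap, so leaving out 1 array could not change their direction. The counts for called and uncalled genes are therefore not comparable. Counts of list members without each array were added after the data were seen. Probe sets near background and saturated ones were not identified.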

Other observations

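Most hypoxia and glycolysis genes did not pass in high-fat macrophages without RBC, where 8.08% of all genes were higher and 5.94% lower. Of 30 measured members, 3 rose, 5 fell and 22 did not pass, and 5 rose without high-fat replicate 1. Epas1, which encodes the hypoxia factor HIF-2 alpha, read 8.23 and 8.17 on the chow arrays and 9.47 and 9.76 on the high-fat arrays and rose by 1.41 ± 0.11 (limma adjusted p = 5.8e-07). Pdk1, the kinase that keeps pyruvate out of the citric acid cycle, rose by 1.26 ± 0.15. Vegfa, the endothelial growth factor, fell by 0.95 ± 0.15, and Hif1a, which encodes HIF-1 alpha, by 0.51 ± 0.10. Of 27 measured genes of oxidative phosphorylation and its control, 1 rose, 0 fell and 26 did not pass in the limma test, with a median difference of 0.08, and 2 rose without chow replicate 1. Of 29 lysosomal genes, 5 rose and 2 fell, and the 5 became 1, 2 and 1 without chow replicate 1, chow replicate 2 and high-fat replicate 2, while the 2 became 1 without chow replicate 2.

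Matrix proteases and adhesion receptors were split between rises and falls. Of 27 measured protease and matrix genes, 8 rose and 5 fell, and the 8 became 5 without chow replicate 1 and 4 without chow replicate 2. Mmp14, a membrane-bound protease that activates other metalloproteinases, read 10.35 and 10.40 on the chow arrays and 8.38 and 8.88 on the high-fat arrays and fell by 1.75 ± 0.13 (limma adjusted p = 5.8e-07). Mmp9, a gelatinase, fell by 1.18 ± 0.12, whereas Plau, the urokinase that activates plasminogen, rose by 1.08 ± 0.14 and Sparc, a collagen-binding matricellular protein, by 1.05 ± 0.12. Of 22 adhesion genes, 5 rose and 4 fell, with 3 higher without chow replicate 1 and 2 lower without chow replicate 1 or high-fat replicate 1. Itga6, a laminin receptor chain, read 6.45 and 6.41 on the chow arrays and 7.67 and 7.86 on the high-fat arrays and rose by 1.33 ± 0.12 (limma adjusted p = 2e-06), and Itgax, which encodes CD11c, rose by 1.05 ± 0.11. Among 10 platelet markers 3 fell and 1 rose, and 1 fell without chow replicate 1 or high-fat replicate 2. Pf4, which macrophages also express, read 10.92 and 10.87 on the chow arrays and 9.57 and 9.61 on the high-fat arrays and fell by 1.30 ± 0.10 (limma adjusted p = 4.3e-07). Of 15 erythroid markers, 2 rose and 1 fell, near the shares over all genes (8.08% higher and 5.94% lower), and 1 rose without chow replicate 1, chow replicate 2 or high-fat replicate 2.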
